A study of Mus musculus with 6 samples.

Results

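Voltage-gated calcium and sodium channel genes were followed in single nuclei of the aged mouse hippocampus. The set holds 35 of the 32285 genes listed in the files, taken by symbol: 10 genes for calcium channel pores (Cacna1a to Cacna1i and Cacna1s), 4 for alpha2delta subunits (Cacna2d1 to Cacna2d4), 4 for calcium channel beta subunits (Cacnb1 to Cacnb4), 10 for sodium channel pores, 4 for sodium channel beta subunits, and 3 for the sodium leak complex (Nalcn, Unc79 and Unc80). The samples were 3 libraries from mice given 2% sevoflurane, a volatile anaesthetic, in 60% oxygen, and 3 libraries from mice given 60% oxygen without it. Both groups were aged 18 to 20 months, breathed for 6 h at 1 L/min, and differed in no other labelled agent or allele. The labels do not say how many animals each library holds, so the tests measure how libraries vary, which may be partly technical.

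In a voltage-gated calcium channel the alpha1 protein forms the pore and senses voltage, beta subunits bind inside the cell and bring the pore to the membrane, and alpha2delta subunits lie outside and raise the number of channels at synapses. Cav1 and Cav2 channels open on strong depolarisation and feed gene control and transmitter release, while Cav3 (T-type) channels open near rest. Sodium channel pores carry the upstroke of the action potential and their beta subunits set gating and placement. NALCN is a sodium leak channel that helps set the resting potential of neurons, and UNC79 and UNC80 are large proteins that it needs to work.

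After filtering, 51892 nuclei remained, 7734 to 9726 per library, and the deposited totals were 56334621 to 72636984 unique molecular identifiers (UMIs) per library. Nuclei were clustered without the channel genes and 12 classes named from markers were tested, each written as X-like. By label replicate 3 of both groups is female and the others are male, but sevoflurane replicate 1 carried female-type counts (Xist at 1363 CPM, against at most 1.22 CPM in the other 5 libraries) and the libraries labelled female carried Y-linked counts. Pairs of libraries shared 0.189% to 0.365% of the smaller library's barcodes. Among the clusters kept out of the classes tested here, 2 were strongly unequal between groups. Choroid plexus-like nuclei numbered 0, 0 and 0 in sevoflurane libraries, against 59, 16 and 99 in oxygen libraries. Inhibitory-like cluster 23 numbered 217, 273 and 214, against 14, 17 and 20. Other sets differed too. Unnamed cluster 34 numbered 5, 21 and 14, against 56, 28 and 27. Of the tested classes, CA3 pyramidal-like nuclei numbered 661, 678 and 496, against 469, 455 and 437. Their shares of all nuclei overlapped, at 5.56% to 7.60% against 5.16% to 6.03%.

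The promoters of the 3 genes on which the sevoflurane results turn most are shown here because their 250 bases before the start differ in makeup: Unc79, Cacna1i and Cacna2d1. They are RefSeq sequences of build GRCm38.p6, all on the plus strand, at chr12:102948609-102948858, chr15:80286988-80287237 and chr5:15934441-15934690. Capitals mark GGGCGG or its reverse complement CCGCCC, the GC box bound by Sp factors.
Unc79: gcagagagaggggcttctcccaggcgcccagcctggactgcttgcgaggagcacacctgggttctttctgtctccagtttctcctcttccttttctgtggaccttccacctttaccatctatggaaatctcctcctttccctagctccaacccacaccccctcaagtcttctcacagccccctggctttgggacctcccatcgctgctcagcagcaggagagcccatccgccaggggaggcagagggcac
Cacna1i: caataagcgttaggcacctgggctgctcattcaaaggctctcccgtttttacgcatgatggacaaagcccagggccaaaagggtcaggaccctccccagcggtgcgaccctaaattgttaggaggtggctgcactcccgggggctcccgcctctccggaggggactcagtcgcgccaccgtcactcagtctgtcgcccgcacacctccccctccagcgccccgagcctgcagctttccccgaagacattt
Cacna2d1: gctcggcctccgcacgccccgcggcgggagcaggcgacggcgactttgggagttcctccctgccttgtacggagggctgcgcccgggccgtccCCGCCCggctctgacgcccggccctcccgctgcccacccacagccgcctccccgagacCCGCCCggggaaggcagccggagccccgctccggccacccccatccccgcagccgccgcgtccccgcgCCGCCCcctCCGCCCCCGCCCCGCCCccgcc
The Unc79 window had 59.6% G and C with 4 CpG pairs and no GC box. The Cacna1i window had 62.4% with 16 CpG pairs and no GC box. The Cacna2d1 window had 82.4% with 36 CpG pairs and 6 GC boxes. Of the 35 genes, 27 matched the table, with 37 windows. A GC box stood in 13 of these 37 windows, against 32.7% of all 32851 windows on either strand. The motif TATAAA stood in 2 of the 37 and in 12.4% of all windows. CACGTG was in 0 of the 37 and 6.02% of all windows, and TGACGTCA in 0 of the 37 and 1.55% of all windows.

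The channel genes were summed to higher levels in neurons than in glia, and single genes marked single classes. Levels are CPM, the UMIs of a gene scaled to one common library total, as mean ± SD over all 6 libraries, and serve as a description. Summed over the 35 genes, the level was 11337 ± 850 CPM in CA3 pyramidal-like, 11044 ± 775 CPM in CA1 pyramidal-like and 9854 ± 897 CPM in dentate granule-like nuclei, against 1856 ± 111 CPM in astrocyte-like and 2139 ± 253 CPM in endothelial-like nuclei. Free RNA gives counts in every class, and its part in the glial levels was not tested. In 10 of the 35 genes the 6 libraries of the highest class all lay above those of the next class. In the other 25 the highest and second class overlapped.

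**Figure D1:**
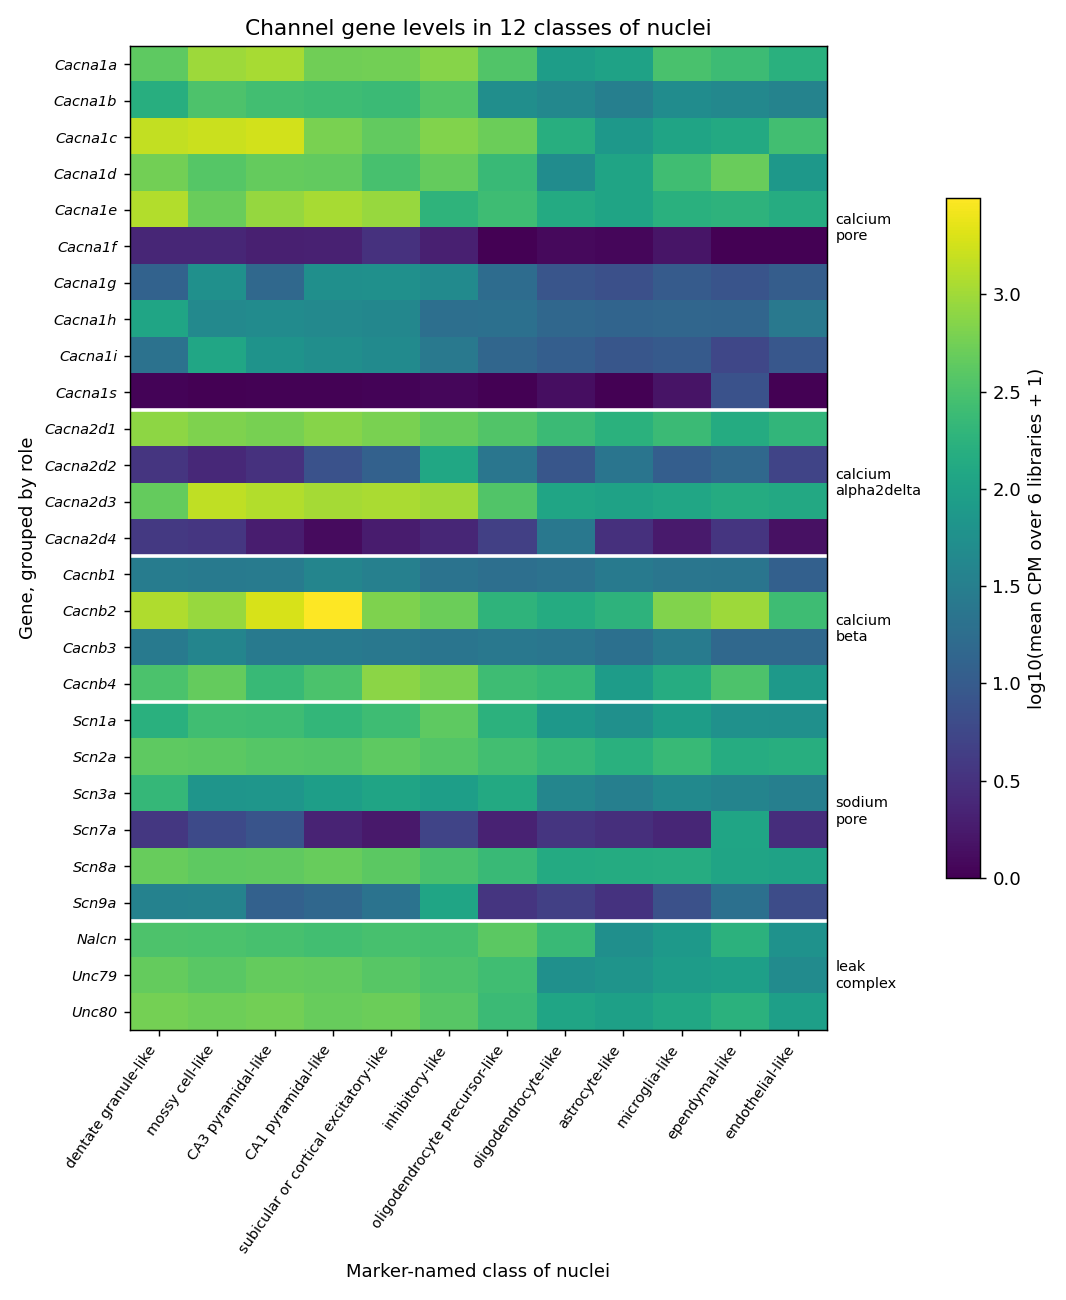
Mean level over 6 libraries in the 12 classes, for the 27 genes that are calcium channel or leak complex genes or sodium pores reaching 10 CPM in a class, as log10(CPM + 1); rows are genes grouped by role and columns are classes. Cacnb2 reached 3127 CPM in CA1 pyramidal-like nuclei, whereas Cacna1f reached at most 2.13 CPM in any class.

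Among the calcium pores, Cacna1c (Cav1.2, the main L-type channel of the brain) was highest in CA3 pyramidal-like nuclei at 1819 ± 164 CPM, then in mossy cell-like nuclei at 1663 ± 142 CPM, and lowest in astrocyte-like nuclei at 72.6 ± 10.4 CPM. Its first and second class overlapped between libraries. Cacna1a, the P/Q-type pore of transmitter release, was also highest in CA3 pyramidal-like nuclei at 1103 ± 240 CPM. Cacna1b, the N-type pore, was highest in inhibitory-like nuclei at 357 ± 19.0 CPM and did not stand apart from mossy cell-like nuclei at 333 ± 30.8 CPM. Cacna1e, the R-type pore, was highest in dentate granule-like nuclei at 1254 ± 145 CPM. The second L-type pore, Cacna1d, was highest in dentate granule-like nuclei at 562 ± 32 CPM, where its range overlapped that of ependymal-like nuclei at 499 ± 76.6 CPM.

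The 3 T-type pores were lower and had 2 leading classes. Cacna1h was highest in dentate granule-like nuclei at 112 ± 11 CPM, with no overlap with CA3 pyramidal-like nuclei at 47.2 ± 4.72 CPM. Cacna1i was highest in mossy cell-like nuclei at 117 ± 39.5 CPM, and Cacna1g was about level in mossy cell-like nuclei at 56.1 ± 15.2 CPM and in subicular or cortical excitatory-like nuclei at 55.7 ± 6.30 CPM. Cacna1f, a channel best known from the retina, stayed at or under 2.13 CPM, and Cacna1s, the skeletal muscle pore, had 54 UMIs in the whole data set.

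Of the alpha2delta subunits, Cacna2d1 and Cacna2d2 are the targets of gabapentinoid drugs. By class mean Cacna2d1 was the more even, at 5.65 times its lowest class in its highest, against 76.4 times for Cacna2d2. Within the inhibitory-like class Cacna2d1 differed widely between clusters, as given below. Cacna2d1 was highest among the classes in dentate granule-like nuclei at 802 ± 138 CPM. Cacna2d2 was at 119 ± 16.8 CPM in inhibitory-like nuclei, 5.25 times the next class (oligodendrocyte precursor-like, 22.7 ± 5.25 CPM), with no overlap. It was higher in 2 sets that were not tested. Pooled over libraries without TMM scaling, it was at 660 CPM in Cajal-Retzius-like nuclei and 233 CPM in inhibitory-like cluster 23. Cacna2d3 was highest in mossy cell-like nuclei at 1449 ± 82.4 CPM. Cacna2d4 was at 24.0 ± 2.55 CPM in oligodendrocyte-like nuclei, 6.77 times the next class, and did not exceed 3.55 CPM on average in any other class.

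Cacnb2 had the highest level of any of the 35 genes, 3127 ± 173 CPM in CA1 pyramidal-like nuclei, above CA3 pyramidal-like nuclei at 1949 ± 212 CPM with no overlap, and it was lowest in oligodendrocyte-like nuclei at 142 ± 23.3 CPM. Per 100 kb of gene span, which allows for the fact that nuclear RNA from long genes collects more counts, Cacnb2 also led the 35 genes in CA1 pyramidal-like nuclei at 813 ± 44.9 CPM per 100 kb. Among the tested classes Cacnb4 was highest in subicular or cortical excitatory-like nuclei at 772 ± 130 CPM, overlapping inhibitory-like nuclei at 624 ± 60.7 CPM. In choroid plexus-like nuclei, which were not tested, it was at 1340 CPM pooled over libraries without TMM scaling. Cacnb1 and Cacnb3 were low and even, at most 37.4 ± 4.05 CPM in CA1 pyramidal-like nuclei and 38.1 ± 14.4 CPM in mossy cell-like nuclei.

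Scn1a (Nav1.1), the pore best known for firing of inhibitory interneurons, was highest in inhibitory-like nuclei at 426 ± 37.4 CPM, with no overlap with mossy cell-like nuclei at 267 ± 56.3 CPM. Scn9a was at 113 ± 23.1 CPM in inhibitory-like nuclei, 3.17 times the next class. It was not confined to them. The dentate granule-like class, at 34.0 ± 6.11 CPM, pools 2 clusters, and Scn9a was among the leading genes of the smaller, cluster 4. Scn3a was highest in dentate granule-like nuclei at 213 ± 18.8 CPM and stood apart from oligodendrocyte precursor-like nuclei at 132 ± 22.8 CPM. Scn2a and Scn8a, the pores of the axon initial segment in excitatory neurons, were nearly level between the highest classes: Scn2a was at 419 ± 26.3 CPM in subicular or cortical excitatory-like and 418 ± 25.4 CPM in dentate granule-like nuclei, and lowest in ependymal-like nuclei at 144 ± 19.6 CPM. Scn7a, a sodium sensor of glia and not a voltage-gated pore in the usual sense, was at 113 ± 22.2 CPM in ependymal-like nuclei, 15.7 times the next class.

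Of the sodium beta subunits, Scn3b was highest in dentate granule-like nuclei at 181 ± 16.0 CPM, then in CA1 pyramidal-like nuclei at 156 ± 6.50 CPM, and lowest in inhibitory-like nuclei at 43.5 ± 3.64 CPM. Scn2b and Scn4b were highest in microglia-like nuclei, at 68.2 ± 11.9 CPM and 5.69 ± 4.34 CPM. Both overlapped oligodendrocyte-like nuclei, at 57.3 ± 9.77 CPM and 4.62 ± 0.913 CPM, and Scn4b ranged from 0 to 12.7 CPM between the microglia-like libraries. Per 100 kb of span Scn3b was the first of the 35 genes in dentate granule-like nuclei, at 808 ± 71.6 CPM per 100 kb. In the leak complex, Nalcn was highest in oligodendrocyte precursor-like nuclei at 415 ± 41.7 CPM, above dentate granule-like nuclei at 328 ± 28.6 CPM with no overlap. Unc79 and Unc80 were highest in neurons, at 470 ± 55.4 CPM and 573 ± 65.8 CPM in dentate granule-like nuclei. They were at 261 ± 21.0 CPM and 241 ± 22.4 CPM in oligodendrocyte precursor-like nuclei. In endothelial-like nuclei they were at 48.1 ± 13 CPM and 92.1 ± 22.3 CPM.

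After sevoflurane, the channel genes called in a class were all lower, and all calls fell in classes of neurons. Counts were summed per library and class and tested across all genes with edgeR's quasi-likelihood test, with a threshold of 0.05 on the p-value adjusted over all genes tested (Benjamini-Hochberg) for a call. The filter on low counts left 19 of the 35 genes tested in all 12 classes, 12 in some, and 4 (Cacna1s, Scn4a, Scn10a and Scn11a) in none. Over the 12 classes, 14 gene and class pairs were called lower and 0 higher, in 8 genes and 5 classes, against 1.13% lower and 0.49% higher of all gene and class pairs: 7 in dentate granule-like, 2 in CA3 pyramidal-like, 2 in inhibitory-like, 1 in CA1 pyramidal-like and 2 in subicular or cortical excitatory-like nuclei. In each of the 14 pairs the 3 sevoflurane libraries lay below the 3 oxygen libraries. The calls were made on these same libraries, so this adds no separate support. Groups also lay apart in 6 classes each for Cacna1c, Cacna1d and Nalcn, which had 0 calls. The share over all genes was not counted. All 8 called genes span 100 kb or more. Only 3 of the 14 calls kept an edgeR adjusted p under 0.05 when each library's dependence on gene span was removed before the test (length correction). With that correction the share of all genes called in either direction was 0.992% in CA1 pyramidal-like, 0.572% in CA3 pyramidal-like, 0.758% in inhibitory-like and 0.514% in subicular or cortical excitatory-like nuclei, and 1.09% over all nuclei.

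Dentate granule-like nuclei, the granule cells that receive the main cortical input of the hippocampus, had the most calls. Of 31 genes tested 7 were lower and 0 higher, against 3.16% of all 15975 genes called lower and 1.44% called higher. Among all genes that span 100 kb or more, 14.9% were called lower in this class. The median log2 fold change of the 31 genes was -0.15, against 0.02 for all genes and -0.14 for all genes of 100 kb or more.

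Cacna2d1, an alpha2delta subunit, had 727, 652 and 687 CPM in sevoflurane libraries and 882, 1015 and 851 CPM in oxygen libraries. The groups did not overlap, and the log2 fold change was -0.41 (SE 0.077, edgeR adjusted p = 0.0168). Cacnb2, the abundant beta subunit, had 1099, 1069 and 1106 CPM in sevoflurane libraries and 1324, 1399 and 1297 CPM in oxygen libraries. Every sevoflurane library was below every oxygen library, at a log2 fold change of -0.30 (SE 0.057, edgeR adjusted p = 0.0188). Unc79 had 402, 429.5 and 429 CPM in sevoflurane libraries and 516, 530.1 and 511 CPM in oxygen libraries. The groups were again apart, with a log2 fold change of -0.30 (SE 0.060, edgeR adjusted p = 0.0201).

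Cacna2d3 had 394, 410.2 and 430.2 CPM in sevoflurane libraries and 521, 494 and 505 CPM in oxygen libraries, without overlap, at a log2 fold change of -0.30 (SE 0.062, edgeR adjusted p = 0.0231). Scn1a, the 1 sodium pore called, had 151, 137 and 152 CPM in sevoflurane libraries and 188, 186 and 174 CPM in oxygen libraries. These did not overlap and the log2 fold change was -0.32 (SE 0.069, edgeR adjusted p = 0.0283). Cacna1e, the R-type pore, had 1126, 1102 and 1173 CPM in sevoflurane libraries and 1320, 1473 and 1332 CPM in oxygen libraries. The groups lay apart at a log2 fold change of -0.28 (SE 0.063, edgeR adjusted p = 0.0341). The remaining call, Cacnb4, is named here after its values were seen: it averaged 283 ± 9.08 CPM in sevoflurane libraries and 351 ± 30.7 CPM in oxygen libraries (SD, n = 3 each), a log2 fold change of -0.31 (edgeR adjusted p = 0.0422).

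**Figure D2:**
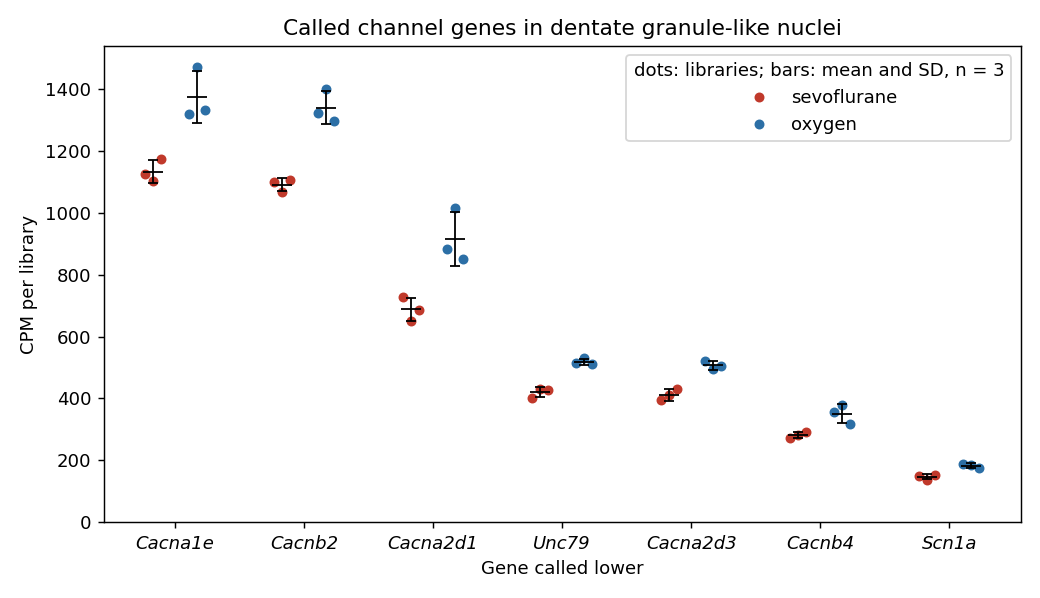
CPM per library of the 7 genes called lower in dentate granule-like nuclei, with sevoflurane (red) beside oxygen (blue); dots are libraries and bars the mean and SD of 3. In each gene the sevoflurane dots lie below the oxygen dots, as for Cacna2d1 at 652 to 727 CPM against 851 to 1015 CPM.

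Gene span moved with these changes. In dentate granule-like nuclei 19 of the 21 tested channel genes of 100 kb or more had a log2 fold change below 0, and 9 of the 10 shorter ones had one above 0. The median of all genes was -0.14 at 100 kb or more, 0.02 at 10 to 100 kb and 0.11 under 10 kb. Their shares below and above 0 were not counted. With the length correction the 7 called genes had log2 fold changes of -0.20 to -0.04, and 0 of the 31 channel genes were called in this class, against 2.97% of all genes. Without the TMM scaling, which shifts the median log2 fold change of all genes in this class to 0.15, 0 genes were called lower and Scn3b and Cacnb1 were called higher. The count lower was 8 without sevoflurane replicate 3, 5 without sevoflurane replicate 1, 2 without oxygen replicate 3, 1 without sevoflurane replicate 2 or without oxygen replicate 1, and 0 without oxygen replicate 2.

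**Figure D3:**
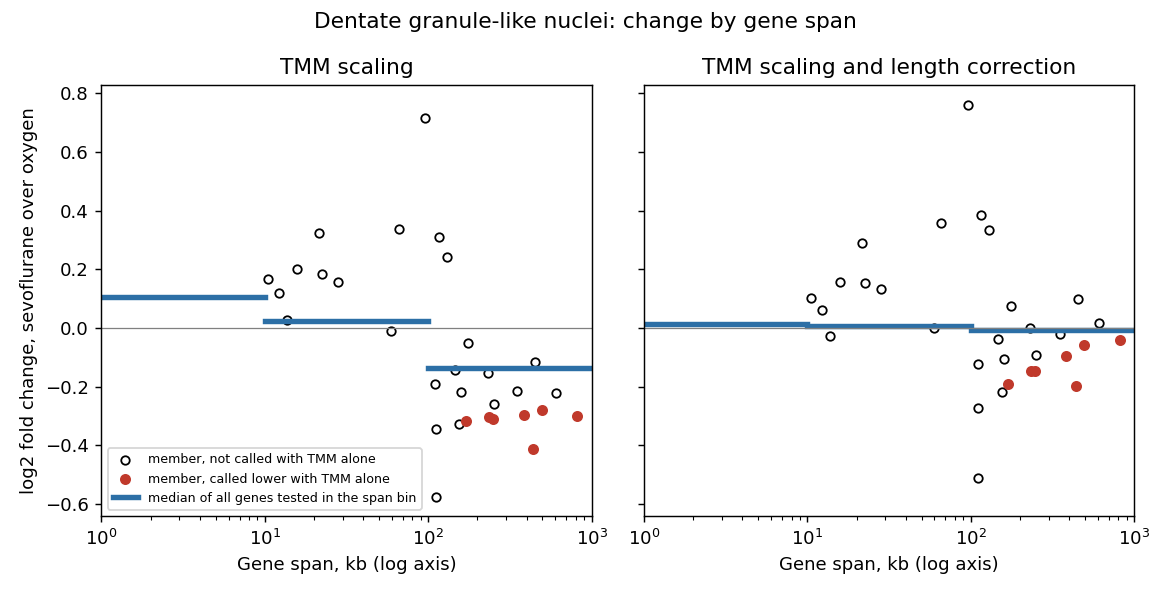
log2 fold change, sevoflurane over oxygen, of the 31 channel genes tested in dentate granule-like nuclei against gene span in kb (log axis), with TMM scaling alone at left and with the length correction at right. Blue lines are medians of all genes tested in each span bin; the line for 100 kb or more is at -0.14 at left and at -0.01 at right, and the 7 called genes (red) move up with it.

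Unc79 was the channel gene called in the most classes, lower in 4 of 12. In CA1 pyramidal-like nuclei it was the 1 call among 29 genes tested, where 1.32% of all 15429 genes were lower and 0.454% higher, and 5.98% of those of 100 kb or more were lower. It had 364, 375 and 411 CPM in sevoflurane libraries and 533, 519 and 499 CPM in oxygen libraries. The groups were apart, at a log2 fold change of -0.43 (SE 0.069, edgeR adjusted p = 0.0114), and the call held with the length correction (log2 fold change -0.31, edgeR adjusted p = 0.043). It was lost without oxygen replicate 1 (adjusted p = 0.0658) and without oxygen replicate 2 (adjusted p = 0.0764).

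In CA3 pyramidal-like nuclei 2 of 29 genes were lower, Unc79 and Cacna1i, and 0 higher, against 1.32% lower and 0.186% higher among all 14504 genes and 6.3% lower among those of 100 kb or more. Unc79 had 408, 408 and 418 CPM in sevoflurane libraries and 515, 525 and 486 CPM in oxygen libraries. These did not overlap, at a log2 fold change of -0.31 (SE 0.061, edgeR adjusted p = 0.0299), and the length correction ended the call (log2 fold change -0.16, edgeR adjusted p = 0.235). Leaving out any library other than sevoflurane replicate 1 also ended it, with edgeR adjusted p-values of 0.0746 to 0.125. Cacna1i, a T-type pore, had 40.2, 48.9 and 53.9 CPM in sevoflurane libraries and 72.1, 75.4 and 73.9 CPM in oxygen libraries. The groups were well apart, at a log2 fold change of -0.63 (SE 0.10, edgeR adjusted p = 0.0124), and the call held with the length correction (-0.57, edgeR adjusted p = 0.0311) but not without oxygen replicate 1 (adjusted p = 0.0534) or oxygen replicate 3 (adjusted p = 0.068).

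In subicular or cortical excitatory-like nuclei the same pair of genes was lower among 30 tested and 0 were higher, against 0.819% lower and 0.356% higher among all 15751 genes and 3.98% lower among those of 100 kb or more. Unc79 had 299, 344 and 341 CPM in sevoflurane libraries and 433, 455 and 427 CPM in oxygen libraries, without overlap, at a log2 fold change of -0.42 (SE 0.082, edgeR adjusted p = 0.0419). Cacna1i had 34.4, 34.6 and 39.98 CPM in sevoflurane libraries and 58.4, 48.4 and 58.4 CPM in oxygen libraries. It too was without overlap, at a log2 fold change of -0.59 (SE 0.11, edgeR adjusted p = 0.0323). With the length correction neither was called, at log2 fold changes of -0.26 (edgeR adjusted p = 0.141) and -0.52 (edgeR adjusted p = 0.0584). Each kept its call without 1 library alone, Unc79 without sevoflurane replicate 2 and Cacna1i without sevoflurane replicate 3, and the largest edgeR adjusted p-values were 0.197 and 0.134, without oxygen replicate 2 and without oxygen replicate 3.

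Followed across all 12 classes, Unc79 had a log2 fold change below 0 in 11, from -0.43 to 0.29, and endothelial-like nuclei were the exception at 51.6 ± 17.1 CPM after sevoflurane and 44.6 ± 9.68 CPM after oxygen (SD, n = 3 each). Cacna1a, Cacna2d1 and Cacnb4 were likewise below 0 in 11 of 12 classes each. The median of all genes of 100 kb or more was below 0 in all 12, from -0.14 to -0.05. The classes come from the same libraries, so their directions are not separate evidence. Cacna1i, followed here after its values were seen, was tested in 9 classes and was below 0 in each. Its groups did not overlap in 7 of the 9. The share over all genes was not counted, and Cacna1c, Cacna1d and Nalcn, with 0 calls, lay apart in 6 classes each. In mossy cell-like nuclei, its highest class, it had 69.6, 101 and 78.7 CPM in sevoflurane libraries and 164, 153 and 136 CPM in oxygen libraries. The groups did not overlap there, but the log2 fold change of -0.85 missed the threshold (SE 0.20, edgeR adjusted p = 0.0547). In dentate granule-like nuclei it averaged 17.7 ± 0.587 CPM and 22.5 ± 0.512 CPM, with an edgeR adjusted p of 0.0613.

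**Figure D4:**
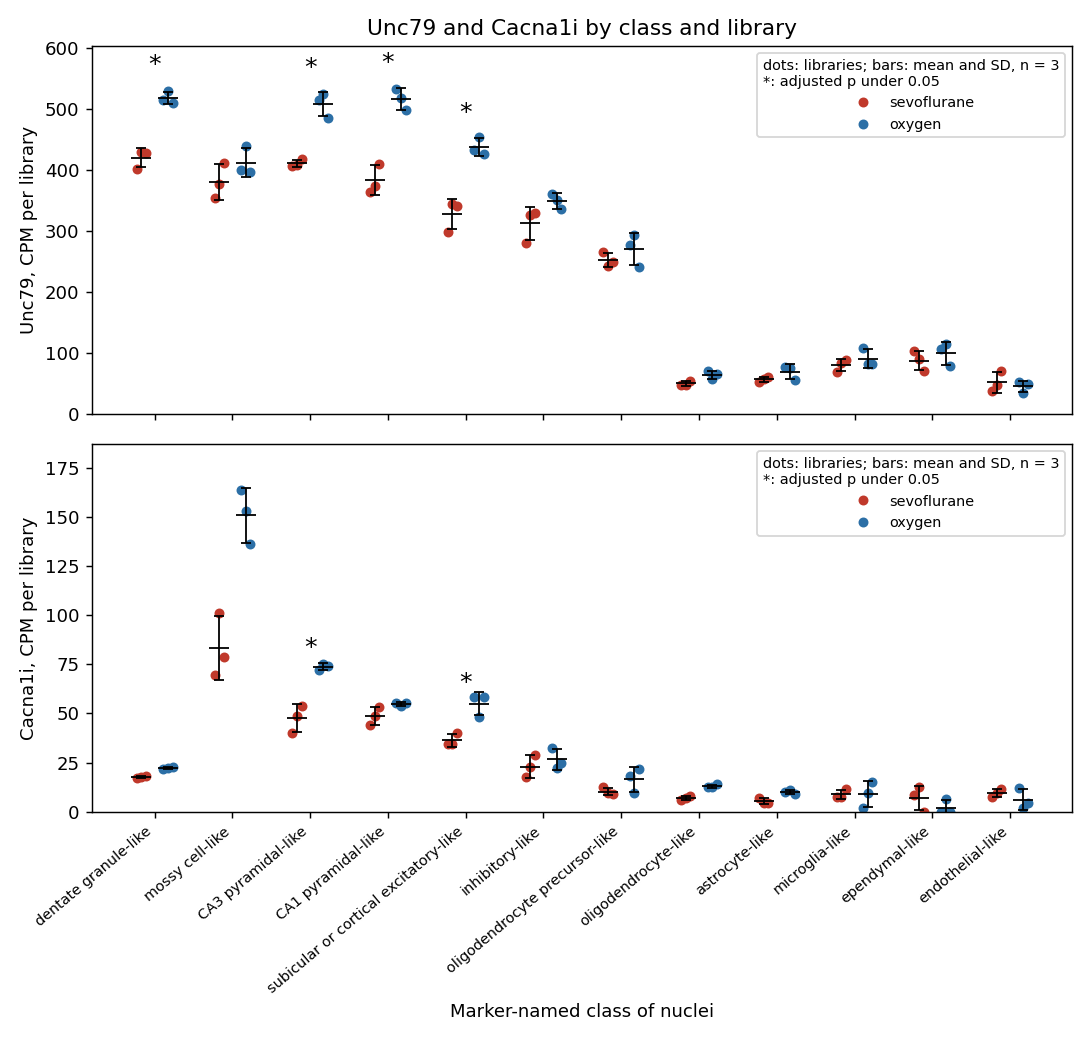
CPM per library of Unc79 (top) and Cacna1i (bottom) in the 12 classes, with sevoflurane (red) left of oxygen (blue); dots are libraries, bars the mean and SD of 3, and stars mark an edgeR adjusted p under 0.05. Stars stand over 4 classes for Unc79 and 2 for Cacna1i; in mossy cell-like nuclei Cacna1i lies apart without a star.

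In inhibitory-like nuclei 2 of 29 genes were lower and 0 higher, against 1.03% lower and 0.319% higher among all 14123 genes and 5.27% lower among those of 100 kb or more. Cacna2d1 had 339.8, 383 and 301 CPM in sevoflurane libraries and 646, 587 and 509.5 CPM in oxygen libraries. This was the largest called decrease among the 14 pairs, with groups far apart, at a log2 fold change of -0.77 (SE 0.10, edgeR adjusted p = 0.00281). It was still called with the length correction (-0.58, edgeR adjusted p = 0.0319) and without each of the 6 libraries in turn. Cacnb2 had 412, 504 and 425 CPM in sevoflurane libraries and 559, 622 and 577 CPM in oxygen libraries. It was without overlap at a log2 fold change of -0.39 (SE 0.087, edgeR adjusted p = 0.0397). The length correction ended that call (-0.21, edgeR adjusted p = 0.322), as did leaving out any library but sevoflurane replicate 2 (adjusted p of up to 0.191, without oxygen replicate 2).

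The inhibitory-like class holds 3 clusters that differ in Cacna2d1, so its level there was read per cluster as well. In cluster 32, named from Lamp5-type interneuron markers, Cacna2d1 had 1949, 1595 and 1542 CPM in sevoflurane libraries and 3163, 3355 and 2812 CPM in oxygen libraries. In cluster 17 it had 276, 397 and 405 CPM in sevoflurane libraries and 595, 497 and 535 CPM in oxygen libraries. In cluster 1, named from Pvalb-type markers, it had 60.98, 86.9 and 65.0 CPM in sevoflurane libraries and 142, 87.8 and 92.3 CPM in oxygen libraries. The groups did not overlap in any of the 3 clusters, though in cluster 1 the nearest libraries of the groups were close, and without TMM scaling they overlapped there. Fitted on cluster 1 alone, the log2 fold change was -0.61 and was not called (edgeR adjusted p = 0.325). Cluster 32 made up 13.1%, 15.4% and 9.94% of the inhibitory-like nuclei in sevoflurane libraries and 13.9%, 12.4% and 11.5% in oxygen libraries, which overlap.

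In the other 7 classes (astrocyte-like, oligodendrocyte-like, oligodendrocyte precursor-like, microglia-like, ependymal-like, endothelial-like and mossy cell-like) 0 channel genes were called by edgeR and 0 by DESeq2. Of 164 gene and class pairs tested there, 19 (11.6%) had an unadjusted p under 0.05 by edgeR and 9 (5.49%) by DESeq2. These were close to the shares of 11.5% and 6.37% over all genes in these classes. Channel genes of 100 kb or more leaned lower in some of these classes, as in inhibitory-like nuclei (15 of 20 below 0, median log2 fold change -0.12). Below 0 were 17 of 18 in oligodendrocyte precursor-like (-0.18), 18 of 20 in oligodendrocyte-like (-0.11) and 14 of 18 in astrocyte-like nuclei (-0.12). Fewer were in ependymal-like (11 of 17, -0.05), mossy cell-like (9 of 18, -0.03), microglia-like (8 of 16, 0.01) and endothelial-like nuclei (4 of 16, 0.15). The medians of all genes of 100 kb or more were -0.12 in inhibitory-like, -0.14 in oligodendrocyte precursor-like, -0.14 in oligodendrocyte-like and -0.10 in astrocyte-like nuclei. They were -0.13 in ependymal-like, -0.07 in mossy cell-like, -0.13 in microglia-like and -0.05 in endothelial-like nuclei. The share of all such genes below 0 was not counted. Of all genes, the share called in either direction was 2.13% in astrocyte-like, 0.839% in oligodendrocyte-like, 0.299% in oligodendrocyte precursor-like, 0.385% in microglia-like, 0.542% in ependymal-like, 2.5% in endothelial-like and 0.211% in mossy cell-like nuclei, and mossy cell-like nuclei numbered as few as 20 in a library.

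Whether the response of the channel genes differed between classes was tested on the within-library difference of log2 CPM with limma. For dentate granule-like minus CA1 pyramidal-like, minus inhibitory-like and minus astrocyte-like nuclei, 0 of 29, 0 of 29 and 0 of 25 channel genes were called, where 0% of all genes were called. At an unadjusted p under 0.05 there were 3 genes in each of these 3 comparisons, and the smallest limma adjusted p was 0.133, for Cacnb1 in dentate granule-like minus astrocyte-like nuclei. A class in which a gene was called is therefore not shown to differ from a class in which it was not.

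Summed over all nuclei, where fewer cells of a type and less RNA per cell cannot be told apart, 2 of 32 genes were lower and 1 higher, against 1.23% lower and 0.756% higher among all 20777 genes and 6.39% lower among those of 100 kb or more. Cacna1i had 29.5, 31.96 and 33.02 CPM in sevoflurane libraries and 41.2, 39.3 and 42.7 CPM in oxygen libraries. The groups were apart at a log2 fold change of -0.38 (SE 0.068, edgeR adjusted p = 0.0395). Unc79 had 332, 347 and 346 CPM in sevoflurane libraries and 405, 432 and 402 CPM in oxygen libraries, also apart, at a log2 fold change of -0.27 (SE 0.052, edgeR adjusted p = 0.0465). With cluster 23 and the choroid plexus-like nuclei left out, a choice made after seeing the data, both stayed lower, at log2 fold changes of -0.40 for Cacna1i (edgeR adjusted p = 0.0368) and -0.29 for Unc79 (edgeR adjusted p = 0.0351). Neither was called with the length correction (edgeR adjusted p = 0.0664 and 0.227), and neither without any 1 of the 6 libraries (edgeR adjusted p of 0.0608 to 0.132).

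Genes that work with these channels were read from lists. Of a list of 33 channel partners (FGF homologous factors, ankyrins, presynaptic RIM proteins, NALCN's partner and others), 30 were in the files, and over the 12 classes 14 of 305 pairs were called lower and 0 higher. Of 298 pairs from 30 genes for calcium stores and extrusion, 12 were lower and 1 higher. Calls over all genes were also more often lower, at 1.13% of pairs lower and 0.49% higher. With the length correction these counts were 0 lower and 0 higher, and 3 lower and 1 higher. In dentate granule-like nuclei 3 of 28 partners and 4 of 27 store and extrusion genes were lower, against 3.16% of all genes and 14.9% of genes of 100 kb or more, with medians of -0.14 and -0.06 against 0.02 for all genes.

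Slc8a1, the sodium-calcium exchanger NCX1 that removes calcium from the cell, was called lower in 5 of the 12 classes. In dentate granule-like nuclei it had 194, 179 and 186 CPM in sevoflurane libraries and 301, 303 and 289 CPM in oxygen libraries. The groups were far apart, at a log2 fold change of -0.68 (SE 0.063, edgeR adjusted p = 0.000799). It was lower in inhibitory-like (-0.58, edgeR adjusted p = 0.00247) and CA1 pyramidal-like nuclei (-0.48, edgeR adjusted p = 0.00576), and in these 3 classes the call held with the length correction. The calls in CA3 pyramidal-like (-0.41, edgeR adjusted p = 0.00571) and microglia-like nuclei (-0.68, edgeR adjusted p = 0.0211) did not (edgeR adjusted p = 0.0556 and 0.208).

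In CA1 pyramidal-like nuclei Fam155a, whose product is a partner of NALCN, was lower at 3503 ± 155 CPM after sevoflurane and 4202 ± 74.3 CPM after oxygen (SD, n = 3 each; log2 fold change -0.26, edgeR adjusted p = 0.0404). Also lower there were Fgf12, a regulator of sodium channel gating (-0.30, edgeR adjusted p = 0.0339), and Itpr1, the calcium release channel of the endoplasmic reticulum (-0.29, edgeR adjusted p = 0.0404). In CA3 pyramidal-like nuclei the exchanger Slc24a2 (-0.33, edgeR adjusted p = 0.0207), the ubiquitin ligase Nedd4l (-0.33, edgeR adjusted p = 0.0315) and the initial segment scaffold Ank3 (-0.27, edgeR adjusted p = 0.0356) were lower.

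In dentate granule-like nuclei the calcium release channel Ryr3 (-0.39, edgeR adjusted p = 0.0161), the sodium channel regulator Fgf14 (-0.24, edgeR adjusted p = 0.0283) and the presynaptic organiser Rims1 (-0.30, edgeR adjusted p = 0.0327) were lower. In inhibitory-like nuclei Rims1 (-0.42, edgeR adjusted p = 0.008), Fgf13 (-0.46, edgeR adjusted p = 0.0105) and Fgf12 (-0.53, edgeR adjusted p = 0.0172) were lower. Nedd4l (-0.35, edgeR adjusted p = 0.0473) and the calcium pump Atp2b2 (-0.41, edgeR adjusted p = 0.0494) were lower in subicular or cortical excitatory-like nuclei, and the exchanger Slc8a3 in oligodendrocyte-like nuclei (-0.53, edgeR adjusted p = 0.0484). None of the lower calls in this and the preceding paragraph held with the length correction. The 1 higher call was the calcium buffer Calb2 in astrocyte-like nuclei, at 15.9, 17.4 and 12.04 CPM after sevoflurane and 6.47, 7.39 and 5.79 CPM after oxygen (log2 fold change 1.17, SE 0.27, edgeR adjusted p = 0.0337), and it held (1.15, edgeR adjusted p = 0.0355).

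Of the 35 genes, 16 overlap a gene on the opposite strand in the annotation, among them Cacna2d1, Cacna2d3, Cacnb2, Cacnb4 and Scn1a. Whether the counting used strand is not given in the sources used here, so for these genes reads of the partner cannot be told apart. Unc79, Cacna1i and Cacna1e have no such partner.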

How the data were processed

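The deposited matrices hold raw counts of UMIs per gene and barcode, made by the authors with fastp and Cell Ranger 7.1.0 on mm10, per the submitters' processing notes. Of 53824 barcodes, 53287 passed (at least 500 UMIs, 300 genes, at most 5% mitochondrial UMIs), and Scrublet at a common score of 0.303 removed 1395. Clustering (scanpy 1.11.5; 3000 variable genes without the channel genes, 40 components, resolution 1.0) gave 37 clusters, 26 of them named from markers. Classes with at least 20 nuclei in every library were tested by edgeR 4.0.16 (quasi-likelihood, TMM, filterByExpr). Alternatives were DESeq2 1.42.0 and others; class differences used limma 3.58.1. The length correction takes a lowess fit of each library's log ratios on gene span (GENCODE M21) as an offset. Genes named have a mean of at least 10 CPM, up to 6 per class by smallest p. Members and lists were chosen with earlier results of these data known. The fits were tested on simulated data. Fitted changes lay near the known ones, the smaller known changes were mostly missed, and simulations with a length trend lost most false calls under the length correction. With gene-wise dispersions the share of false calls among edgeR's calls was above the nominal level even without a trend. A second simulation with trended dispersions was added after that excess was seen, and its false share was lower. Calls near the threshold therefore carry more error than their adjusted p states. Values of 2 sodium channel genes are not reported here; they stay in the counts.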

Additional observations from a re-analysis of the deposited data

How the results depend on the processing

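Of 271 refits of the 17 called gene and set pairs, 140 kept the call, 131 lost it and 0 changed sign. The refits reuse the counts on which the pairs were called, so the unchanged sign is no separate support. DESeq2 kept 17 of 17, as did no filter on low counts and the stricter nuclei filter, while no TMM kept 3, the length correction 4, the replicate block 5 and both together 1. Without 1 library the pairs kept were 10, 6 and 11 for sevoflurane replicates 1, 2 and 3 and 2, 2 and 4 for oxygen replicates 1, 2 and 3. No TMM moved the median log2 fold change of all genes by -0.01 to 0.13, over 0.1 in 4 of 13 sets. Counts of channel genes called moved as follows, and the cause was not tested. All nuclei (3): DESeq2 7, no TMM 1, mean of at least 10 CPM 0, length correction 1, left-out libraries 0 to 1. CA1 pyramidal-like (1): DESeq2 4, no filter 4, largest cluster 2, left-out libraries 0 to 2. CA3 pyramidal-like (2): no TMM 0, no filter 5, length correction 1, left-out libraries 0 to 2. Dentate granule-like (7): no TMM 2 (both higher), mean of at least 10 CPM 7 (6 lower, and Cacnb1 higher), length correction 0, left-out libraries 0 to 8. Inhibitory-like (2): DESeq2 4, no TMM 1, mean of at least 10 CPM 1, length correction 1, doublets kept 1, largest cluster 0, left-out libraries 1 to 2. Subicular or cortical excitatory-like (2): DESeq2 6, no TMM 0, no filter 6, mean of at least 10 CPM 1, length correction 0, largest cluster 3, left-out libraries 0 to 1. The 7 classes with 0 calls: no filter 2, mean of at least 10 CPM 1, left-out libraries 0 to 1. Channel partners (14): DESeq2 30, no TMM 4, no filter 30, length correction 0, left-out libraries 2 to 12. Stores and extrusion (13): no TMM 8, no filter 27, length correction 4, left-out libraries 5 to 12. Class differences stayed at 0 to 0. Levels in the highest class moved by less than 1 SD with doublets kept in all 35 genes.

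Replicate numbers did not pair the samples: deviations of same-numbered libraries correlated from -0.13 to 0.09, and 1 of 3 sevoflurane libraries matched best to its own number in all nuclei. With the replicate block the counts were 0 in all nuclei, 1 in CA3 pyramidal-like, 0 in dentate granule-like, 1 in inhibitory-like and 1 in CA1 pyramidal-like nuclei, 3 in subicular or cortical excitatory-like nuclei, 0 for channel partners and 6 for stores and extrusion. With the block and the length correction they were 0 in all nuclei, 0 in CA1 pyramidal-like, 0 in CA3 pyramidal-like, 0 in dentate granule-like, 1 in inhibitory-like and 0 in subicular or cortical excitatory-like nuclei, 0 for channel partners and 3 for stores and extrusion.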

Other observations

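Some sets had too few nuclei for a test, and their levels are CPM on plain library totals without TMM scaling. In Cajal-Retzius-like nuclei, early-born cells of the outer layer, Cacna2d2 had 697, 554 and 636 CPM in sevoflurane libraries and 664, 623 and 737 CPM in oxygen libraries. Cacna2d1 was also high there, at 2174, 1497 and 1427 CPM in sevoflurane libraries and 1912, 2178 and 1590 CPM in oxygen libraries. Both genes overlapped between the groups, and the Cajal-Retzius-like nuclei numbered 19 to 50 per library. In choroid plexus-like nuclei, which were found in oxygen libraries alone, Cacnb4 had 1466, 1733 and 1205 CPM, and Scn7a had 1 UMI in the 3 libraries together.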
